A study of Mus musculus with 9 samples.

Results

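The Hox genes are the 39 protein-coding genes of mouse whose symbol is Hoxa, Hoxb, Hoxc or Hoxd followed by a number. They were chosen by symbol alone from 52609 genes with transcripts in the data, 11 in the Hoxa cluster, 10 in Hoxb, 9 in Hoxc and 9 in Hoxd. In the GRCm38 annotation the clusters span 105 kb of chromosome 6, 174 kb of chromosome 11, 116 kb of chromosome 15 and 96.8 kb of chromosome 2.

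Hox genes encode homeodomain transcription factors that give body segments their identity along the head-to-tail axis. Within each cluster the genes are numbered by paralogue group. Low numbers lie at the 3′ end, are switched on first and act in the hindbrain and neck, and high numbers lie at the 5′ end, are switched on last and act in the lumbar region, tail, limb ends and genitalia. Wnt, FGF, caudal (Cdx) factors and retinoic acid promote their activation in the posterior epiblast, and Polycomb complexes keep them silent where they are not used. The epiblast stem cell is a cultured counterpart of the epiblast from which these genes are later activated.

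Transcripts were measured by stranded mRNA sequencing in 4 mouse lines described as epiblast stem cells. All lines were grown on inactivated mouse embryonic fibroblasts (feeders) in serum replacement medium that held 20 ng/mL Activin A together with 10 ng/mL FGF2. Dkk1_KO (n = 3) was a knockout of Dkk1, a secreted Wnt antagonist. IWP2_removed (n = 2) was derived with IWP2, a Porcupine inhibitor that blocks Wnt secretion, and then kept without it. IWP2 (n = 2) was kept in 5 µM IWP2, and control (n = 2) was the control line, without inhibitor. Each group was 1 line, so line and treatment or genotype cannot be told apart. The labels give neither strain nor whether replicates were separate cultures, and p-values then measure only the spread between these libraries, which may be technical.

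Estimated reads per library ran from 10849490 to 17892751, of which the 39 Hox genes together held between 1735 and 5042. The targeted gene Dkk1 was at 0.190, 0.228 and 0.309 TPM in Dkk1_KO, 1.07 and 1.69 TPM in IWP2_removed, 0.945 and 0.0930 TPM in IWP2 and 2.36 and 2.64 TPM in control. It was lower in Dkk1_KO than in control (log2 fold change -3.13 ± 0.68, adjusted p = 0.00597), but 1 IWP2 library was below all 3 Dkk1_KO libraries. TPM is a level scaled for transcript length and for the library total, so it can be compared between genes. The Dkk1_KO libraries went against the label of epiblast stem cells. A list of 12 epiblast markers summed to between 250 and 269 TPM in Dkk1_KO, against 801 and 1029 TPM in control, with Pou5f1 at 1.30 ± 0.308 TPM (SD, n = 3) against 431 ± 40.2 TPM (SD, n = 2). Of these markers 7 were called lower and 2 higher, Utf1 at 99.9 ± 6.44 TPM in Dkk1_KO against 6.07 ± 2.27 TPM in control and Dnmt3b at 78.0 ± 1.34 TPM against 30.1 ± 2.79 TPM. A list of 13 trophoblast markers summed to between 1152 and 1220 TPM in Dkk1_KO, against 32.6 and 37.0 TPM in control. No trophoblast marker was without a read in Dkk1_KO, and Esx1 had none in control. The 16 feeder fibroblast markers summed to between 418 and 422 TPM in Dkk1_KO, against 869 and 1067 TPM in control. Of these 9 were called lower and 2 higher, Tbx15 at 6.81 ± 1.25 TPM in Dkk1_KO against 2.61 ± 2.00 TPM in control and Tbx18 at 2.53 ± 0.105 TPM against 0.810 ± 0.171 TPM. Both higher calls were lost without control replicate 2 and with Dkk1_KO averaged to 1. Of the lower calls, that of Pdgfrb was lost in 13 of 15 alternative settings and that of Col5a1 in 7 of 15. Those of Thy1, Col1a2 and Fap were lost in 1 or 2, and those of Col3a1, Dcn, Lum and Postn in 0. Neural tube markers had 1 higher and 6 lower of 12 in Dkk1_KO, lateral plate and extraembryonic mesoderm markers 6 higher of 11, caudal epiblast markers 3 higher and 5 lower of 10, and endoderm markers 1 higher and 4 lower of 6. All these list counts stand beside 21.3% of all genes tested called higher in Dkk1_KO and 23.0% called lower. The lists are not separate, since Cdx2 is both a trophoblast and a caudal epiblast marker, and Hand1 both a trophoblast and a mesoderm marker. Embryonic fibroblasts express Hox genes too, and the part of these cell type differences in the Hox values below was not tested. In such bulk samples fewer cells of a type and less RNA per cell cannot be told apart. The Dkk1_KO libraries also agreed more closely with each other than other replicates did, with a chi-square per degree of freedom of 1.74 to 2.16, against 29.3 for the control pair, where counting error alone gives about 1.

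The Hox genes differed between lines in amount and in composition. Summed over the 39 genes, the level was 46.4, 44.8 and 47.6 TPM in Dkk1_KO, 117 and 104 TPM in IWP2_removed, 99.5 and 89.5 TPM in IWP2 and 74.0 and 44.9 TPM in control. The libraries of IWP2_removed and IWP2 lay above all others, while the Dkk1_KO libraries fell within the control range apart from the lowest, at 44.8 TPM. Hoxc and Hoxd genes together gave most of the Hox transcripts in Dkk1_KO and few in the other lines. Hoxd made up 31.9 ± 1.84% of the summed Hox TPM in Dkk1_KO (SD, n = 3) and 2.70 ± 0.651% in IWP2_removed, 2.53 ± 1.34% in IWP2 and 4.24 ± 0.0451% in control (SD, n = 2 each). For Hoxc the shares were 32.5 ± 0.298% in Dkk1_KO, 4.82 ± 2.57% in IWP2_removed, 4.07 ± 2.02% in IWP2 and 7.67 ± 2.52% in control. Hoxb was the other way round, with 12.9 ± 1.03% in Dkk1_KO, 48.1 ± 0.254% in IWP2_removed, 43.5 ± 7.99% in IWP2 and 45.1 ± 4.45% in control. Paralogue numbers 1 to 3 held 13.8 ± 1.23% of Hox TPM in Dkk1_KO, 36.3 ± 4.92% in IWP2_removed, 49.2 ± 11.6% in IWP2 and 35.2 ± 0.0196% in control. These sums are descriptions and were given no test.

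**Figure D1:**
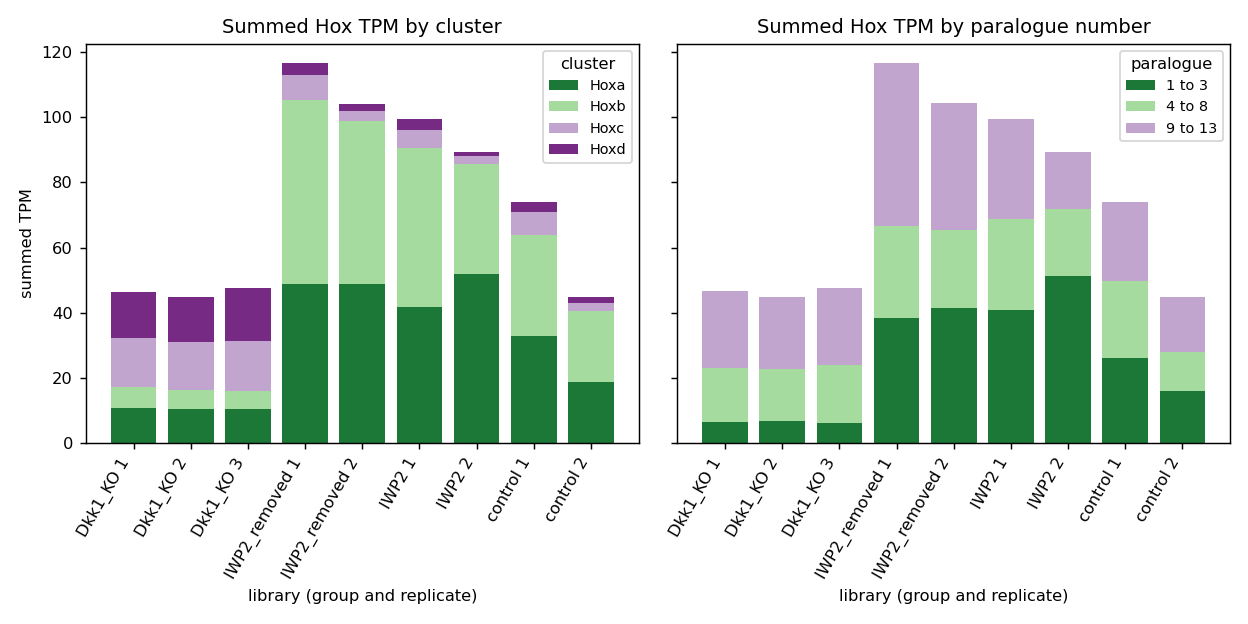
Summed TPM of the Hox genes in each library, stacked by cluster (left) and by paralogue number (right), with libraries in groups along the horizontal axis. Hoxc and Hoxd take up much of the 3 Dkk1_KO bars, and the IWP2_removed and IWP2 bars are the tallest, from 89.5 to 117 TPM.

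**Figure D2:**
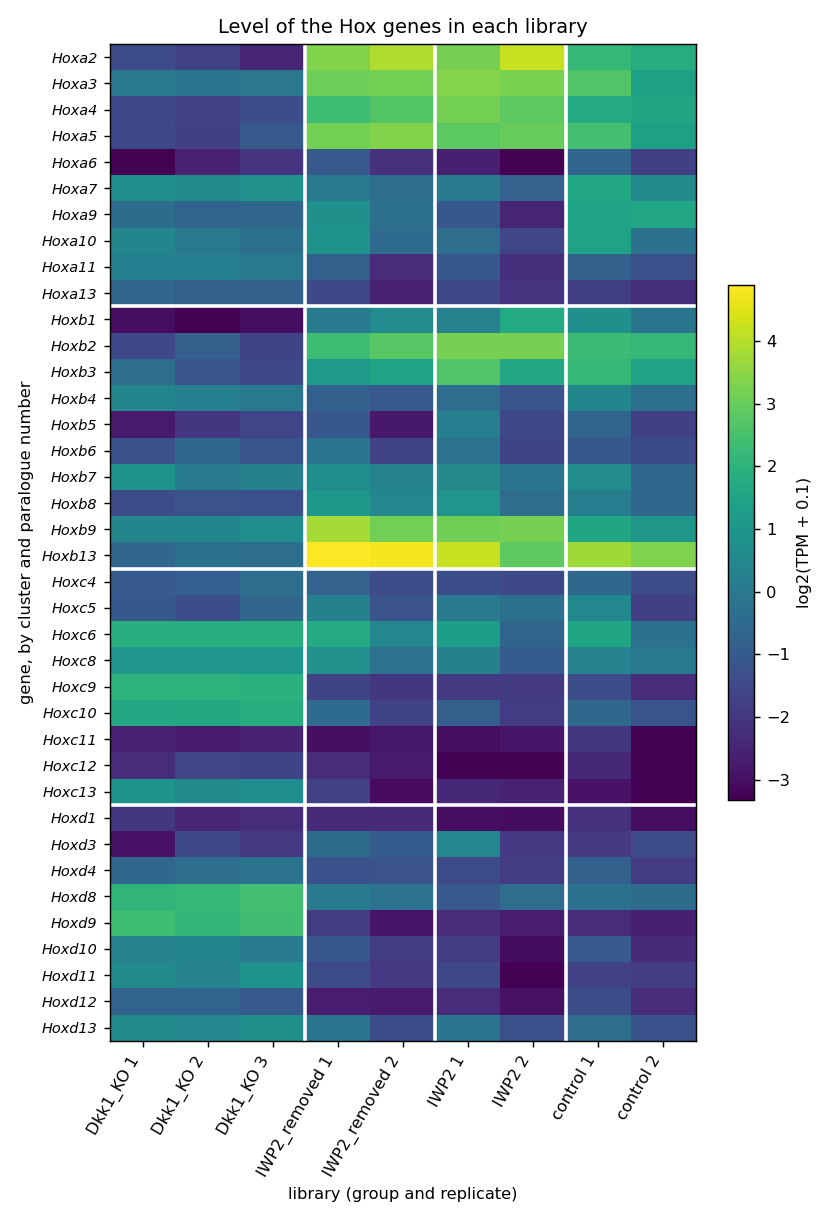
Level of the Hox genes described here (rows, by cluster and paralogue number) in each of the 9 libraries (columns), as log2(TPM + 0.1). Hoxa2 to Hoxa5, Hoxb1 to Hoxb3 and Hoxb13 are darker in Dkk1_KO than in control, while Hoxc9, Hoxc10, Hoxc13 and Hoxd8 to Hoxd13 are brighter there than in control.

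Dkk1_KO was set against control to see how loss of Dkk1 bears on the cells in the same medium. Several genes at the 3′ ends of Hoxa and Hoxb were lower in Dkk1_KO, and several at the 5′ ends of Hoxc and Hoxd were higher. Hoxa2, Hoxa4, Hoxa5, Hoxb1, Hoxb2 and Hoxb13 were all lower by more than 3 on the log2 scale, and Hoxc9 and Hoxd9 were higher by more than 4. Of the 39 genes 35 had enough reads to be tested, and with edgeR's quasi-likelihood test and Benjamini-Hochberg adjustment 12 were called higher and 10 lower at an adjusted p below 0.05. Over all 18096 genes tested 21.3% were called higher and 23.0% lower, 44.3% in all. The TPM of all Dkk1_KO libraries lay above both control libraries for 14 of the 35 Hox genes and below both for 11, beside 25.5% and 42.1% of all genes. For 8 of the 35 genes, Dkk1_KO was the only group with at least 2 libraries at the read minimum. These were Hoxa13, Hoxb6, Hoxc9, Hoxc13, Hoxd9, Hoxd10, Hoxd11 and Hoxd12. Of them, Hoxc13, Hoxd9 and Hoxd12 could enter the test only if high in Dkk1_KO. In control 24 of the 35 reached the read minimum in both libraries. The median log2 fold change of the genes tested was 0.60, beside -0.03 over all genes.

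By cluster, Hoxa had 2 higher and 5 lower of 10 tested, Hoxb 4 lower of 10, Hoxc 3 higher of 7, and Hoxd 7 higher and 1 lower of 8. By position, paralogue numbers 1 to 3 had 6 lower of 7, numbers 4 to 8 had 2 and 2 of 14, and numbers 9 to 13 had 10 and 2 of 14. The median log2 fold changes of these classes were -2.63, 0.50 and 1.86. Of the 10 higher calls at numbers 9 to 13, those of Hoxc13, Hoxd9 and Hoxd12 were of genes that could enter only if high in Dkk1_KO. For Hoxa13, Hoxc9, Hoxd10 and Hoxd11, Dkk1_KO was the only group with at least 2 libraries at the read minimum. The count and median of that class are therefore not support for a pattern by position. The Hoxc and Hoxd counts include Hoxc9, Hoxc13 and Hoxd9 to Hoxd12, and are likewise not support for a pattern by cluster. Among the 24 genes that reached the read minimum in control, a choice that leans the other way, numbers 9 to 13 had 3 higher and 2 lower of 7, with a median of -0.54. Numbers 4 to 8 had 1 and 2 of 11 there (median 0.40), and numbers 1 to 3 had 5 lower of 6 (median -3.17). By cluster, the same 24 genes gave 1 higher and 5 lower of 9 in Hoxa and 4 lower of 8 in Hoxb. They gave 1 higher of 5 in Hoxc and 2 higher of 2 in Hoxd. The exceptions at the 5′ end were Hoxa9 and Hoxb13, both lower. The fitted fold changes of Hoxb1 and Hoxc13, with 2 and 1 reads in the lower group, depend on the prior count, and ratios of reads are given for them instead. Of the 22 calls 13 held in every alternative setting run (14 or 15 for each gene). The other 9 (Hoxa9, Hoxa11, Hoxa13, Hoxd3, Hoxd4, Hoxd10, Hoxd11, Hoxd12 and Hoxd13) were lost in at least 1 setting. In the settings that follow, calls over all genes were fewer as well. With the 3 Dkk1_KO libraries averaged to 1 there were 5 higher and 8 lower. Without control replicate 2 there were also 5 and 8, without Dkk1_KO replicate 3 there were 6 and 8, and without Dkk1_KO replicate 1 there were 7 and 8.

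**Figure D3:**
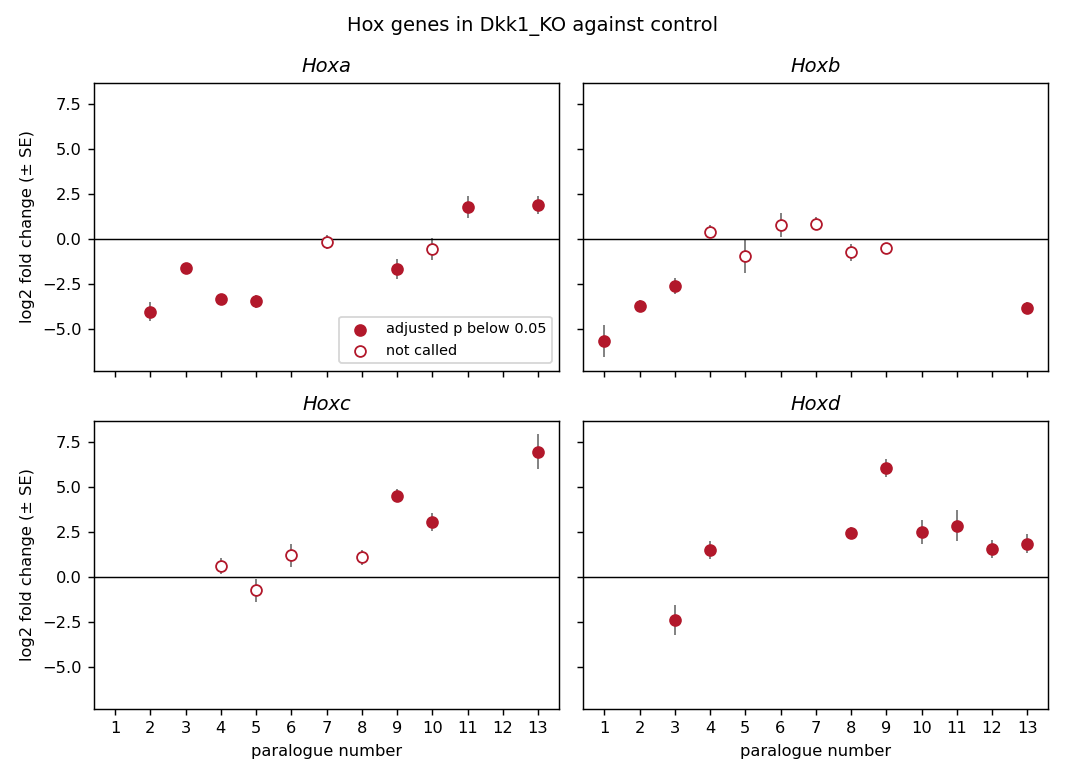
Log2 fold change of the tested Hox genes described here in Dkk1_KO against control, by paralogue number in each cluster, with standard errors as bars. Filled points passed an adjusted p below 0.05, and they lie below 0 at paralogue numbers 1 to 3 and above 0 at numbers 9 to 13 except for Hoxa9 and Hoxb13. Hoxc13, Hoxd9 and Hoxd12 could enter the test only if high in Dkk1_KO, so the points at numbers 9 to 13 are not support for a pattern by position.

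The regions before the starts of 2 genes that were lower (Hoxa2, Hoxa5) and 2 that were higher (Hoxd8, Hoxd10) are shown because these genes are neighbours, within their clusters, of others that moved the same way. Sequences are from RefSeq (GRCm38.p6), whose promoter table matched 22 of the 39 genes, each given 5′ to 3′ on the gene's strand as the 250 bases before its start. Capitals mark 4 short motifs searched on both strands, CCAAT (the CCAAT box), AGGTCA (a nuclear receptor half-site), TTTATG (a Cdx site) and CTTTGA (a TCF/LEF site).
Hoxa2, chr6:52164832-52165081, minus strand: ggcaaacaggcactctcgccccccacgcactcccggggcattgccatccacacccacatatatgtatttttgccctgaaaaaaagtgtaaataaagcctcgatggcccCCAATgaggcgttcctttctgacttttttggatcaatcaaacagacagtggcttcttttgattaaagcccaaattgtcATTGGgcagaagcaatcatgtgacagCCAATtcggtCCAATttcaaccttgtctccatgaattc
Hoxa5, chr6:52204588-52204837, minus strand: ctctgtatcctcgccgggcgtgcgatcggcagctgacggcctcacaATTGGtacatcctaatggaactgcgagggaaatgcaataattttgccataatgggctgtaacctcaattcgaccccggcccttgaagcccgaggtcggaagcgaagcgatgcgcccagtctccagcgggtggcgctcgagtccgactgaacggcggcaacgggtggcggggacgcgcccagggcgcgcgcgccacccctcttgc
Hoxd8, chr2:74704365-74704614, plus strand: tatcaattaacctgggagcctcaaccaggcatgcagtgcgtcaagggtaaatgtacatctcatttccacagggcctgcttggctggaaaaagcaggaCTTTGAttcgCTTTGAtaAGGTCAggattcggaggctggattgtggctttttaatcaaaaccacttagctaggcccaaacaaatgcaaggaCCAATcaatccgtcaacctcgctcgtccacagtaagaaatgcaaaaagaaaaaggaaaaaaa
Hoxd10, chr2:74691641-74691890, plus strand: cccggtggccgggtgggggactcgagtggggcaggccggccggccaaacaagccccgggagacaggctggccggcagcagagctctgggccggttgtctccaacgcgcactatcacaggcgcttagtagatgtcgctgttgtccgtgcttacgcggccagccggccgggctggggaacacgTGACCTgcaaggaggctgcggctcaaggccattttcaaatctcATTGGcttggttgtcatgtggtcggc
All 4 windows hold CCAAT, with 4 matches in that of Hoxa2. CCAAT was found in 58.3% of the 24 Hox promoters of the table and in 33.8% of all 32851 promoters, and AGGTCA in 25% and 14%. TTTATG was in 20.8% and 10.8%, and CTTTGA in 12.5% and 13.8%. The GC content of the windows was 46.4% for Hoxa2, 63.6% for Hoxa5, 44.4% for Hoxd8 and 65.6% for Hoxd10, so neither the lower nor the higher pair shared it. The motifs do not overlap each other in these windows, and a match is a description of letters, not a site shown to be used.

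Among the 3′ genes, which act in the hindbrain and pharyngeal arches, Hoxa2 sets the identity of the second arch. It was at 0.272, 0.202 and 0.0827 TPM in Dkk1_KO, 10.1 and 15 TPM in IWP2_removed, 9.05 and 18.2 TPM in IWP2 and 4.30 and 3.30 TPM in control. All Dkk1_KO libraries lay below every other library, and the log2 fold change against control was -4.07 ± 0.53 (SE, adjusted p = 0.000416). Hoxb2, a hindbrain gene, was at 0.241, 0.458 and 0.223 TPM in Dkk1_KO, 4.99 and 6.70 TPM in IWP2_removed, 9.04 and 9.05 TPM in IWP2 and 4.81 and 4.34 TPM in control. It fell in the same way, with a log2 fold change of -3.72 ± 0.33 (adjusted p = 4.98e-05). Hoxb1, which patterns the fourth hindbrain segment, was at 0.0226, 0 and 0.0229 TPM in Dkk1_KO, 0.936 and 1.46 TPM in IWP2_removed, 1.15 and 3.16 TPM in IWP2 and 1.64 and 0.806 TPM in control. The Dkk1_KO libraries held 2 Hoxb1 reads in all and the control libraries 78, a ratio per total read of 0.0155 (95% exact binomial interval 0.00185 to 0.0579, counting error only), and the call had an adjusted p of 0.00106.

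Hoxa3, needed for the thymus and parathyroid, was at 0.895, 0.787 and 0.859 TPM in Dkk1_KO, 8.44 and 8.92 TPM in IWP2_removed, 10.2 and 9.37 TPM in IWP2 and 6.29 and 2.45 TPM in control. The control libraries differed from each other, and both still lay above all of Dkk1_KO (log2 fold change -1.62 ± 0.24, adjusted p = 0.000928). Hoxb3 was at 0.690, 0.338 and 0.251 TPM in Dkk1_KO, 2.08 and 2.61 TPM in IWP2_removed, 6.19 and 3.04 TPM in IWP2 and 4.32 and 2.57 TPM in control (log2 fold change -2.63 ± 0.42, adjusted p = 0.00127). Hoxd3 was called lower on its reads (log2 fold change -2.39 ± 0.82, adjusted p = 0.0436), but its TPM overlapped between the groups, it shares 388 exonic bases with Hoxd4 on the same strand, and the call was lost in 10 of 14 alternatives (adjusted p 0.0129 to 0.819). The division of reads between this pair is therefore uncertain, and the call of Hoxd4 (log2 fold change 1.51 ± 0.51, adjusted p = 0.0403) was lost in 10 of 15 (0.0281 to 0.276).

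Of the trunk genes with paralogue numbers 4 to 8, Hoxa4 and Hoxa5 fell and Hoxd4 and Hoxd8 rose. Hoxa4, a gene of the neck region, was at 0.247, 0.201 and 0.282 TPM in Dkk1_KO, 5.02 and 6.33 TPM in IWP2_removed, 9 and 7.07 TPM in IWP2 and 3.17 and 2.77 TPM in control (log2 fold change against control -3.35 ± 0.26, adjusted p = 2.44e-05). Hoxa5, which acts in the lung and at the neck-to-thorax boundary, was at 0.255, 0.194 and 0.388 TPM in Dkk1_KO, 8.90 and 9.96 TPM in IWP2_removed, 6.95 and 7.75 TPM in IWP2 and 5.27 and 2.43 TPM in control (-3.48 ± 0.37, adjusted p = 0.000131). For both genes no Dkk1_KO library came near any other. Hoxd8 was the Hoxd gene with the highest mean over the 4 groups, at 4.06, 4.30 and 5.34 TPM in Dkk1_KO, 0.930 and 0.772 TPM in IWP2_removed, 0.393 and 0.657 TPM in IWP2 and 0.737 and 0.649 TPM in control (2.46 ± 0.30, adjusted p = 0.00028). Hoxc6, a thoracic gene and the Hoxc gene with the highest mean, was at 3.54, 3.47 and 3.50 TPM in Dkk1_KO, 3.23 and 1.29 TPM in IWP2_removed, 2.35 and 0.525 TPM in IWP2 and 2.79 and 0.764 TPM in control. The Dkk1_KO libraries were the 3 highest, but Hoxc6 did not pass the test (1.21 ± 0.64, adjusted p = 0.158), and its replicates differed more than 2-fold within each of the other lines. None of Hoxb4 to Hoxb8, Hoxc4, Hoxc5, Hoxc8 and Hoxa7 was called, with Hoxb7 (0.85 ± 0.37, adjusted p = 0.0928) and Hoxc8 (1.09 ± 0.42, adjusted p = 0.0664) nearest to the threshold.

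Hoxd9, Hoxc9 and Hoxc10 at the 5′ ends of their clusters were higher in Dkk1_KO, where they were among the most abundant Hox transcripts. Hoxd9 was at 5.01, 4.23 and 5.11 TPM in Dkk1_KO, 0.173 and 0.0420 TPM in IWP2_removed, 0.105 and 0.0536 TPM in IWP2 and 0.108 and 0.0636 TPM in control (log2 fold change against control 6.05 ± 0.50, adjusted p = 3.63e-05). Hoxc9, a gene of thoracic motor neurons, was at 3.83, 3.84 and 3.69 TPM in Dkk1_KO, 0.220 and 0.149 TPM in IWP2_removed, 0.160 and 0.165 TPM in IWP2 and 0.286 and 0.108 TPM in control (4.54 ± 0.37, adjusted p = 3.18e-05). Hoxc10, a lumbar gene, was at 3.04, 3.07 and 3.38 TPM in Dkk1_KO, 0.629 and 0.215 TPM in IWP2_removed, 0.463 and 0.171 TPM in IWP2 and 0.587 and 0.337 TPM in control (3.07 ± 0.50, adjusted p = 0.00141). For these 3 genes every Dkk1_KO library lay above every other library, with no overlap. Hoxc10 shares 166 exonic bases with Hoxc5 on the same strand, and reads from that stretch cannot be divided with certainty. Hoxc13, known from hair and nail growth, was at 1.72, 1.39 and 1.5 TPM in Dkk1_KO, 0.203 and 0.0179 TPM in IWP2_removed, 0.0894 and 0.0762 TPM in IWP2 and 0.0306 and 0 TPM in control. Dkk1_KO held 239 Hoxc13 reads and control 1, a ratio per total read of 145 (95% exact binomial interval 25.7 to 5732, counting error only, adjusted p = 0.000658).

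The remaining 5′ Hoxd genes and Hoxa11, which act in the limb, were also called higher, at lower Dkk1_KO levels than those of Hoxd9, Hoxc9 and Hoxc10. Hoxd10 was at 1.14, 1.24 and 0.913 TPM in Dkk1_KO, 0.366 and 0.177 TPM in IWP2_removed, 0.177 and 0.0215 TPM in IWP2 and 0.388 and 0.102 TPM in control (log2 fold change against control 2.51 ± 0.67, adjusted p = 0.0157). Hoxd11, a forearm gene, was at 1.41, 1.18 and 1.77 TPM in Dkk1_KO, 0.271 and 0.158 TPM in IWP2_removed, 0.244 and 0 TPM in IWP2 and 0.204 and 0.182 TPM in control (2.85 ± 0.87, adjusted p = 0.0271). Hoxd13, a digit gene, was at 1.41, 1.33 and 1.62 TPM in Dkk1_KO, 0.824 and 0.284 TPM in IWP2_removed, 0.815 and 0.302 TPM in IWP2 and 0.666 and 0.322 TPM in control (1.85 ± 0.53, adjusted p = 0.0205). In each of the 3 genes the Dkk1_KO libraries were the highest of all 9. Hoxa11, which acts with Hoxd11 in the forearm, was at 1.08, 1.06 and 0.888 TPM in Dkk1_KO, 0.487 and 0.107 TPM in IWP2_removed, 0.364 and 0.109 TPM in IWP2 and 0.475 and 0.303 TPM in control (1.78 ± 0.62, adjusted p = 0.0451). Its protein-coding transcript made up 100% of the gene's TPM in all Dkk1_KO libraries and was listed at 0 TPM in both control libraries. All 4 calls were lost with Dkk1_KO averaged to 1 and without control replicate 2, with the highest adjusted p over the alternatives at 0.143 for Hoxd10, 0.18 for Hoxd11, 0.162 for Hoxd13 and 0.249 for Hoxa11.

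Hoxb13 and Hoxa9 were called lower, unlike the other called genes with paralogue numbers 9 to 13. Hoxa10, next to Hoxa9, also had a negative log2 fold change but was not called (-0.57 ± 0.59, adjusted p = 0.465). Hoxb13, which limits growth of the tail and marks the prostate, was the most abundant Hox gene over the 4 group means. It was at 0.551, 0.761 and 0.688 TPM in Dkk1_KO, 29.6 and 27.3 TPM in IWP2_removed, 18.3 and 7.20 TPM in IWP2 and 13 and 9.73 TPM in control, and Dkk1_KO lay below all others (log2 fold change against control -3.84 ± 0.31, adjusted p = 3.02e-05). Hoxa9, a gene of blood progenitors, was at 0.641, 0.509 and 0.552 TPM in Dkk1_KO, 1.65 and 0.698 TPM in IWP2_removed, 0.369 and 0.0786 TPM in IWP2 and 2.64 and 2.95 TPM in control (-1.69 ± 0.55, adjusted p = 0.0355). Both control libraries were above all others, but in control replicate 2 a processed transcript without a coding sequence held 68.9% of Hoxa9 TPM, against 18% in control replicate 1. The Hoxa9 call was lost in 7 of 15 alternatives, among them protein-coding transcripts only and each control or Dkk1_KO library left out (adjusted p 0.00179 to 0.308). Hoxb9 was at 1.23, 1.27 and 1.52 TPM in Dkk1_KO, against 2.72 and 1.92 TPM in control, without overlap, but did not pass the test (-0.54 ± 0.23, adjusted p = 0.085).

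IWP2 was set against control to see how inhibited Wnt secretion bears on the line. Hoxb9, Hoxa3 and Hoxa4 rose in IWP2, and no Hox gene was called lower. Of the 35 genes tested 3 were called higher and 0 lower, beside 1.27% and 0.917% of all genes, 2.19% in all. Both IWP2 libraries lay above both control libraries for 7 of the 35 and below for 5, beside 11.8% and 20.8% of all genes. At an unadjusted p under 0.05 there were 7 higher and 3 lower, beside 1652 and 1320 of all 18096 genes. DESeq2 called 5 Hox genes higher and 2 lower, beside 646 and 421 over all genes. The median log2 fold change was 0.25, beside 0.01 over all genes, and for paralogue numbers 1 to 3 it was 1.10 with all 7 positive. Hoxb9 (chr11:96271457-96276595, GRCm38, plus strand), a gene of the thoracic skeleton, was at 8.50 and 9.12 TPM in IWP2, against 2.72 and 1.92 TPM in control (log2 fold change 2.06 ± 0.24, adjusted p = 0.00649). Hoxa3 differed by 1.77 ± 0.26 (adjusted p = 0.0161) and Hoxa4 by 1.55 ± 0.24 (adjusted p = 0.0207), and in each of the 3 genes both IWP2 libraries lay above both control libraries. Log2 ratios of TPM + 0.1 were also taken within replicate number, replicates 1 before replicates 2. They were 1.61 and 2.19 for Hoxb9, 0.69 and 1.89 for Hoxa3 and 1.48 and 1.32 for Hoxa4.

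These calls rested on the spread pooled over all 9 libraries, to which Dkk1_KO gave the closest replicates. With only the 6 libraries without Dkk1_KO, 0 Hox genes were called and the fold changes stayed at 2.06, 1.76 and 1.55, with adjusted p = 0.0888 for Hoxb9, 0.131 for Hoxa3 and 0.161 for Hoxa4. Without control replicate 2 the adjusted p was 0.0712, 0.0915 and 0.104 for the same genes, and 0 were called. Without control replicate 1 there were 2 higher, and Hoxa4 had an adjusted p of 0.0925. Without IWP2 replicate 1 there were 6 higher and 2 lower. Over its alternatives the adjusted p of Hoxb9 ran from 4.15e-10 to 0.0888, of Hoxa3 from 5.69e-07 to 0.204 and of Hoxa4 from 4.34e-05 to 0.161. Hoxa2 had a log2 fold change of 2.03 ± 0.46 that missed the threshold (adjusted p = 0.0638), with IWP2 replicates at 9.05 and 18.2 TPM. Hoxa9, at 0.369 and 0.0786 TPM in IWP2 against 2.64 and 2.95 TPM in control, missed it on the lower side (-3.26 ± 0.68, adjusted p = 0.052).

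**Figure D4:**
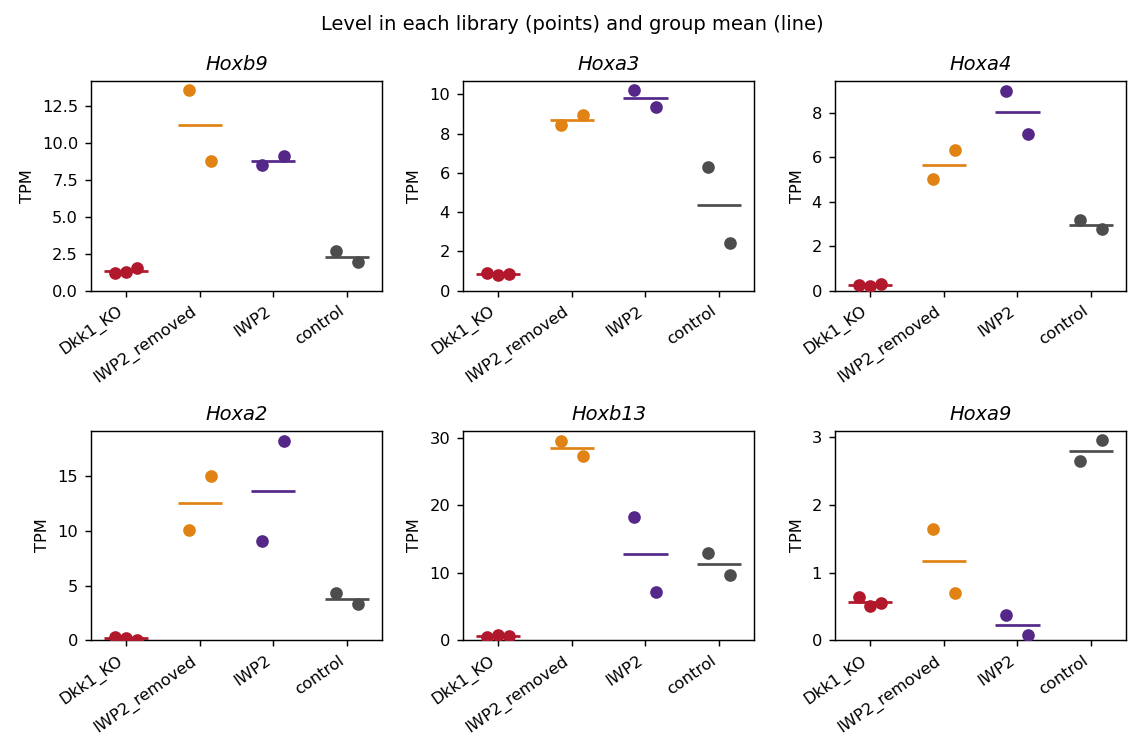
TPM of 6 Hox genes in each library (points) with the group mean (line), from left to right Dkk1_KO, IWP2_removed, IWP2 and control, on linear axes that start at 0. Hoxb9, Hoxa3, Hoxa4 and Hoxa2 lie higher in both IWP2_removed and IWP2 than in control, Hoxb13 is highest in IWP2_removed at 29.6 and 27.3 TPM, and Hoxa9 is highest in control.

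The comparison of IWP2_removed with control asked whether a line derived under the inhibitor still differed once it had been withdrawn. Hoxb9 was the 1 Hox gene called, at 13.6 and 8.83 TPM in IWP2_removed, against 2.72 and 1.92 TPM in control (log2 fold change 2.35 ± 0.25, adjusted p = 0.00787). The counts were 1 higher and 0 lower of 35, beside 0.669% and 0.586% of all genes, 1.25% in all. Both IWP2_removed libraries lay above both control libraries for 11 of the 35 and below for 4, beside 12.2% and 25.2% of all genes. At an unadjusted p under 0.05 there were 10 higher and 3 lower, beside 1115 and 1039 of all 18096 genes. DESeq2 called 7 Hox genes higher and 0 lower, beside 345 and 312 over all genes. The Hoxb9 log2 ratio of TPM + 0.1 was 2.28 between replicates 1 and 2.14 between replicates 2. The call was lost with the 6 libraries without Dkk1_KO (adjusted p = 0.135), without control replicate 1 (0.0504), without control replicate 2 (0.0758) and without IWP2_removed replicate 1 (0.0536), while the fold change stayed between 1.86 and 2.58 in every alternative. Over its alternatives the adjusted p ran from 5.84e-13 to 0.135. Most of the Hoxb9 level came from transcript Hoxb9-202, with between 81.5% and 88.1% in IWP2_removed, 73.4% and 89.1% in IWP2 and 67.4% and 79.5% in control. Hoxa3 (1.34 ± 0.26, adjusted p = 0.0513) and Hoxb13 (1.44 ± 0.30, adjusted p = 0.0683) missed the threshold, although both IWP2_removed libraries lay above both control libraries.

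The last comparison set IWP2_removed against IWP2, lines without and with the inhibitor. Of 35 Hox genes 0 were called higher and 0 lower by edgeR, beside 0.0387% and 0.0221% of all genes, 0.0608% in all. The libraries of IWP2_removed lay above those of IWP2 for 6 of the 35 and below for 4, beside 13.4% and 12.3% of all genes. At an unadjusted p under 0.05 there were 2 higher, Hoxb13 and Hoxa9, and 0 lower, beside 738 and 1016 of all 18096 genes. DESeq2 also called 2 Hox genes higher and 0 lower, beside 162 and 220 over all genes. Hoxb13 was at 29.6 and 27.3 TPM in IWP2_removed, against 18.3 and 7.20 TPM in IWP2 (log2 fold change 1.19 ± 0.30, adjusted p = 0.198), without overlap. It passed without IWP2 replicate 1 (adjusted p = 0.0124, range over its alternatives 0.000678 to 0.856). Hoxa9 was at 1.65 and 0.698 TPM in IWP2_removed, against 0.369 and 0.0786 TPM in IWP2 (2.41 ± 0.68, adjusted p = 0.248). Hoxb9 overlapped between these lines (0.29 ± 0.23, adjusted p = 0.834).

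In the 3 lines other than Dkk1_KO, replicate 1 held more Hox transcript than replicate 2 in most genes. Its TPM was the higher in all 3 lines for 23 of the 39 Hox genes (59%) and the lower in all 3 for 0, against 38.6% and 11.6% of all genes tested. The pattern lay in the trunk and 5′ genes, with 11 of 15 for paralogue numbers 4 to 8, 11 of 16 for numbers 9 to 13 and 1 of 8 for numbers 1 to 3. Summed Hoxc TPM was 7.74 and 3.13 in IWP2_removed, 5.46 and 2.36 in IWP2 and 6.99 and 2.64 in control, replicate 1 before replicate 2, and 14.9, 14.7 and 15.5 in Dkk1_KO. Of the 16 feeder markers 7 (43.8%) were higher in replicate 1 of all 3 lines and 1 (6.25%) lower, near the shares over all genes. Among them Tbx15, a factor of skin and limb mesenchyme, was at 2.43 and 0.932 TPM in IWP2_removed, 2.83 and 0.803 TPM in IWP2 and 4.02 and 1.19 TPM in control. The collagen Col3a1 was not among the 7, at 267 and 299 TPM in IWP2_removed, 244 and 215 TPM in IWP2 and 240 and 368 TPM in control. The part of feeder RNA in this pattern was not tested.

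Other Hox genes gave lower or less regular values. Hoxa7, Hoxa10, Hoxa13, Hoxb4 to Hoxb8, Hoxc4, Hoxc5, Hoxc8, Hoxd3, Hoxd4 and Hoxd12 ranged from 0.0295 to 2.94 TPM, of which Hoxd4 and Hoxd3 are described above and Hoxa13 (log2 fold change 1.88 ± 0.52, adjusted p = 0.0185) and Hoxd12 (1.57 ± 0.52, adjusted p = 0.0372) were called higher in Dkk1_KO. Hoxa6, Hoxc11, Hoxc12 and Hoxd1 were not tested, since none passed the read minimum, and reached at most 0.541 TPM in any library.

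Within the 4 clusters lie 43 annotated non-coding genes, of which 12 were tested. In Dkk1_KO 1 rose and 7 fell against control, beside 21.3% and 23.0% of all genes. The antisense RNAs of the 3′ ends were low, as the coding genes beside them were. Levels of these and the following genes are in CPM, reads scaled to the library total, as mean ± SD with n = 3 in Dkk1_KO and n = 2 in the other groups. Hoxb3os had 0.121 ± 0.209 CPM in Dkk1_KO against 5.77 ± 2.12 CPM in control (-5.50 ± 0.74 on the log2 scale, adjusted p = 0.000512). Hoxaas2 had 0.220 ± 0.141 CPM in Dkk1_KO against 6.50 ± 0.932 CPM in control (-4.86 ± 0.75, adjusted p = 0.00104). Hoxb3os shares 2250 exonic bases with Hoxb3 and 953 with Hoxb2 on the opposite strand, and Hoxaas2 shares 503 with Hoxa3. The sources used here do not say whether the authors' counting used strand, so reads of such pairs cannot be told apart with certainty. Gm53, between Hoxb13 and Hoxb9, was at 29.6 ± 8.41 CPM in IWP2_removed and 9.08 ± 2.39 CPM in control (1.71 ± 0.32, adjusted p = 0.0468), and fell in Dkk1_KO (-1.69 ± 0.30, adjusted p = 0.00223). Gm15050 in the Hoxa cluster had 4.88 ± 1.80 CPM in IWP2 against 1.46 ± 0.0475 CPM in control (1.74 ± 0.35, adjusted p = 0.0477).

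Mir196a-1, a precursor locus beside Hoxb9 of miR-196a, a microRNA known to target Hox transcripts, held 2 reads in Dkk1_KO and 14 in control. The ratio per total read was 0.0864 (95% exact binomial interval 0.00953 to 0.376), for this locus alone. Such reads on a precursor do not measure the mature microRNA. Its mature sequence from RefSeq (GRCm38.p6, chr11:96265187-96265208, plus strand) is shown with that of the copy in the Hoxa cluster (chr6:52230129-52230150, minus strand), which had no read in either group, with the seed in capitals.
mmu-miR-196a-5p: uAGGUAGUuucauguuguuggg
mmu-miR-196b-5p: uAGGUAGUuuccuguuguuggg
Both carry the same seed. Of the 8 protein-coding genes next to the clusters 2 were called in Dkk1_KO, Hibadh next to Hoxa (log2 fold change 1.08 ± 0.15, adjusted p = 0.000578) and Smug1 next to Hoxc (0.70 ± 0.17, adjusted p = 0.0117), both higher.

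The counts of the following lists in Dkk1_KO stand beside the 21.3% of all genes called higher and 23.0% called lower in that comparison. All calls of list and non-coding genes named for IWP2_removed or IWP2 were lost with the 6 libraries without Dkk1_KO (adjusted p from 0.0888 to 0.402). Each was also lost without control replicate 2 except that of Cyp26a1 in IWP2, and each was lost without control replicate 1 except those of Cyp26a1 in both lines. In IWP2_removed each was lost without either library of that line, and in IWP2 that of Gm15050 was lost without IWP2 replicate 2. Hox proteins bind DNA with cofactors of the TALE class (Pbx, Meis and Pknox). All 9 of this list were tested, and in Dkk1_KO 2 rose and 4 fell. Meis2 had 4.69 ± 0.754 CPM in Dkk1_KO against 132 ± 3.66 CPM in control (-4.82 ± 0.19 on the log2 scale, adjusted p = 1.27e-06). Pknox2 (-4.24 ± 0.17, adjusted p = 1.29e-06) and Meis3 (-1.92 ± 0.16, adjusted p = 4.41e-05) also fell in Dkk1_KO. Meis3 rose in IWP2, at 42.9 ± 7.42 CPM against 21.7 ± 0.432 CPM in control (0.99 ± 0.17, adjusted p = 0.03).

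Among 14 caudal regulators that act upstream of Hox genes 13 were tested, and in Dkk1_KO 2 rose and 9 fell. Cdx2, a direct activator of trunk Hox genes that also specifies trophoblast, had 88.0 ± 4.66 CPM in Dkk1_KO against 0.329 ± 0.290 CPM in control (8.17 ± 0.48, adjusted p = 7.34e-06). Fgf8, which keeps the posterior growth zone, had 0.146 ± 0.127 CPM in Dkk1_KO against 34.2 ± 14 CPM in control (-7.80 ± 0.50, adjusted p = 1.08e-05). Gdf11, a ligand that promotes 5′ Hox activation, had 8.45 ± 0.534 CPM in Dkk1_KO against 21.3 ± 0.488 CPM in control (-1.33 ± 0.16, adjusted p = 0.000258). Wnt8a held 3 reads in Dkk1_KO and 1834 in control, a ratio per total read of 0.000989 (95% exact binomial interval 0.000204 to 0.0029). Cdx4 had no read in any library.

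Of 16 genes of retinoic acid synthesis, breakdown and reception 15 were tested, and 8 fell in Dkk1_KO. Cyp26a1, the enzyme that breaks retinoic acid down, was called lower than control in all 3 other lines, in IWP2_removed and IWP2 not with the 6 libraries (adjusted p = 0.229 and, in IWP2, 0.0888). It was at 8.91 ± 0.472 CPM in Dkk1_KO (log2 fold change -1.15 ± 0.22, adjusted p = 0.00349), 4.78 ± 0.432 CPM in IWP2_removed (-2.05 ± 0.26, adjusted p = 0.0135), 3.49 ± 0.0938 CPM in IWP2 (-2.50 ± 0.27, adjusted p = 0.00438) and 19.8 ± 6.31 CPM in control. The synthesis enzyme Aldh1a1 was at 0.936 ± 0.170 CPM in Dkk1_KO (-2.30 ± 0.38, adjusted p = 0.00147), 0.690 ± 0.354 CPM in IWP2_removed (-2.70 ± 0.44, adjusted p = 0.0325) and 4.61 ± 0.781 CPM in control, and with the 6 libraries its adjusted p in IWP2_removed was 0.27. Aldh1a2 (-2.84 ± 0.53) and the receptor Rxrg (-3.23 ± 0.40) fell in Dkk1_KO.

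Of 20 Polycomb subunits 6 rose and 4 fell in Dkk1_KO, a share near that of all genes (median log2 fold change 0.12). Suz12 rose (0.78 ± 0.12, adjusted p = 0.00104), as did Cbx8 (1.38 ± 0.22, adjusted p = 0.00125), while Phc1 fell (-1.75 ± 0.19, adjusted p = 0.00017). In both IWP2_removed and IWP2, 2 of the 20 rose, the methyltransferase Ezh2 and the ubiquitin ligase Rnf2. Ezh2 was at 198 ± 29.3 CPM in IWP2_removed (0.94 ± 0.15, adjusted p = 0.0312), 206 ± 27.5 CPM in IWP2 (0.99 ± 0.15, adjusted p = 0.02) and 104 ± 8.76 CPM in control. With the 6 libraries the adjusted p of Ezh2 was 0.319 in IWP2_removed and 0.189 in IWP2, and that of Rnf2 was 0.402 and, in IWP2, 0.325. Of 11 Trithorax subunits and H3K27 demethylases 2 rose and 3 fell in Dkk1_KO, among them Ash2l (0.81 ± 0.15, adjusted p = 0.00292) and Wdr5 (0.59 ± 0.13, adjusted p = 0.00641) rising, and Psip1 (-1.04 ± 0.22, adjusted p = 0.00481) and Kdm6a (-0.48 ± 0.11, adjusted p = 0.00771) falling, a share also near that of all genes. Of 12 other homeobox genes 7 were tested, and in Dkk1_KO 1 rose and 5 fell. En1, a midbrain-hindbrain gene, had 2.35 ± 0.343 CPM in Dkk1_KO against 45.6 ± 1.69 CPM in control (-4.27 ± 0.19, adjusted p = 1.82e-06). The somite genes Meox1 (-6.16 ± 0.64, adjusted p = 0.000128) and Meox2 (-4.18 ± 0.82, adjusted p = 0.00363) fell as well. Pdx1, related to Hox genes and known from the pancreas, had 121 reads in Dkk1_KO and 0 in control, at least 24.4-fold higher by a floor of 3 reads over the control group. With the Dkk1_KO libraries averaged to 1, the calls of Gm53, Smug1, Aldh1a1, Aldh1a2, Cyp26a1, Suz12, Cbx8, Ash2l, Wdr5, Psip1, Kdm6a and Meox2 in Dkk1_KO were lost (adjusted p from 0.0503 to 0.228), and those of Smug1 and Kdm6a also without control replicate 1.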

How the data were processed

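RNA was measured by TruSeq stranded mRNA sequencing in 9 libraries of 4 lines. The deposited files hold TPM and estimated counts per transcript, which the authors made with Salmon, per the submitters' processing notes, which also name DESeq2 and edgeR without versions. The sources used here do not state the transcriptome build or use of strand. Of 133618 transcripts 133399 were matched by Ensembl identifier to GENCODE (GRCm38) and summed to 52609 genes; the 219 others held 0.117% to 0.161% of reads.

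Estimated counts were rounded and tested with edgeR 4.0.16 (R 4.3.3; quasi-likelihood F test, TMM, filterByExpr, 1 mean per group, all 9 libraries, Benjamini-Hochberg over 18096 genes, threshold 0.05), also checked on simulated data. Every adjusted p, and every log2 fold change ± SE, comes from this fit unless another setting is named. Alternatives used DESeq2 1.42.0 and limma 3.58.1. Ratios of reads have 95% exact binomial intervals and a floor of 3 reads over the group, which cover counting error only.

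TPM in every library is given for Hoxb9, the Hox gene with the highest mean TPM in each cluster and each called Hox gene whose highest group mean reached 1 TPM. Of each list up to 4 called genes with the smallest adjusted p are named. The members and lists were chosen with earlier results of these data known. Values of some single genes are not reported here.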

Additional observations from a re-analysis of the deposited data

How the results depend on the processing

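None of the Hox genes called in the 4 comparisons changed sign under the alternatives run. For Dkk1_KO against control, the 12 Hox genes called higher became 5 with the Dkk1_KO libraries averaged to 1 and 5 to 9 with 1 library left out; the 10 called lower stayed between 8 and 10. For IWP2_removed against control, the 1 called higher became 2 with DESeq2 size factors, 7 with DESeq2, 6 with no filter on low counts, 2 with at least 1 CPM in 2 libraries and 0 with the 6 libraries without Dkk1_KO, and 0 to 1 with 1 library left out. For IWP2 against control, the 3 called higher became 5 with DESeq2, 7 with no filter, 1 with limma-trend on log2(TPM + 0.1) and 0 with the 6 libraries without Dkk1_KO, and 0 to 6 with 1 library left out. The 0 called lower became 2 with DESeq2, 3 with no filter, 1 with limma-trend at either pseudocount (1 or 0.1) and 0 to 2 with 1 library left out. For IWP2_removed against IWP2, the 0 called higher became 2 with DESeq2 and 2 with no filter, and 0 to 2 with 1 library left out. Calls over all genes moved with the setting too. In Dkk1_KO against control they fell with the averaging and with each library left out. Those higher in IWP2_removed against control went from 121 to 345 with DESeq2, 362 with no filter and 1 with the 6 libraries. In IWP2 against control, the same settings took 230 higher calls to 646, 685 and 6, and 166 lower calls to 421, 535 and 6. Higher calls in IWP2_removed against IWP2 went from 7 to 162 with DESeq2 and 202 with no filter. The cause of these shifts was not tested. Where a group was left with 1 library, that library was assumed to vary like the other groups.

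The replicate numbers were not taken as pairs. Deviations of libraries with the same number correlated at 0.43 to 0.661 among the 3 lines without Dkk1_KO and at -0.104 to -0.0435 with Dkk1_KO. Among those 3 lines replicates 1 and 2 gave the same values, since the 2 deviations of a group are equal and opposite. Each library also carries a letter. Replicates 1 to 3 of Dkk1_KO are A, B and C, and replicates 1 and 2 of the other lines are B and C. By letter the correlations with Dkk1_KO were -0.0149 to 0.1. With the replicate block, IWP2 against control had 4 Hox genes called higher and 1 lower, and by letter 4 and 1, with Hoxa2 gained under both (adjusted p = 0.0389 and, by letter, 0.0446). By letter IWP2_removed against control had 2 higher, with Hoxb13 gained (adjusted p = 0.0442). Dkk1_KO against control had 12 higher and 9 lower under either block, with Hoxc6 gained and Hoxd3 and Hoxd4 lost.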
